A study of Mus musculus with 6 samples.

Results

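Genes that make, move, inactivate or sense prostaglandins were followed in inguinal white adipose tissue (iWAT), and 7 of 10 listed genes had a row in the deposited count table, which holds 19509 gene symbols. The list was chosen by name as a pathway, and selected on the counts of *Slco2a1*, the prostaglandin transporter, which were higher in the knockout libraries. That difference is a description of how the genes were picked, and it carries no test here. *Ptgs1* and *Ptgs2*, which encode the cyclooxygenases, and *Ptger4*, which encodes the EP4 receptor, had no row and were not analysed here. A symbol with more than 1 row is represented by the row of highest total count.

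The study compared 3 *Lexis*-AdWT mice with 3 *Lexis*-AdKO mice, all fed a Western diet for 12 weeks. Both groups carry a floxed allele of the long noncoding RNA *Lexis*. AdKO mice also carry Adipoq-cre, in which the adiponectin promoter directs Cre to adipocytes and not to the other cells of the fat pad, and AdWT mice are Cre-negative littermates. No age was given in the labels of these libraries. *4930412L05Rik*, the symbol under which *Lexis* stands in the table, had counts of 8, 9 and 8 in AdWT and 21, 11 and 13 in AdKO, a log2 fold change of 0.87 with a standard error of 0.381 (edgeR adjusted *P* = 0.851). Every AdKO library lay above every AdWT library in this row, as in 6.16% of all rows, with an edgeR unadjusted *P* of 0.0550. A loss of *Lexis* is thus not visible in this row, and its difference runs the other way. Every direction below follows the labels. Which part of the transcript this row counts, inside or outside the deleted stretch, is not given in the sources used here. Total counts per library ranged from 14470542 to 17882713, and *Adipoq*, the adipocyte hormone used to drive Cre, had between 70997 and 113310 counts in each.

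Prostaglandins are short-range lipid signals. Phospholipases free arachidonic acid from membranes, cyclooxygenases turn it into an unstable intermediate, and terminal synthases convert that into prostaglandin E2, D2, F2α, prostacyclin or thromboxane. The signal ends when the transporter encoded by *Slco2a1* carries a prostaglandin into a cell and the dehydrogenase encoded by *Hpgd* oxidizes it there. In white fat, prostaglandin E2 made from fatty acid that the adipose phospholipase *Pla2g16* releases acts through the EP3 receptor, encoded by *Ptger3*, to restrain lipolysis.

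*Slco2a1* (ENSMUSG00000032548.7) lies on chromosome 9 of mm9 from 102910817 to 102990179 on the plus strand, and its longest coding transcript has 14 exons. The 250 bases before its annotated start (chr9:102910567-102910816, plus strand) are shown because this is the gene around which the set was built. A match to the TATA box letters TATAAA is in capitals.

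Slco2a1 upstream: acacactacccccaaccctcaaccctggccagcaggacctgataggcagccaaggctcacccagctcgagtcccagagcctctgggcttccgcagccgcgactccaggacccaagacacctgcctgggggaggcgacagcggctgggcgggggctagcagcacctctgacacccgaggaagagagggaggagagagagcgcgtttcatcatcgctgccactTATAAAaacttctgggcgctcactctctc

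Windows from 250 bases before to 50 bases after the most upstream start of a coding transcript were searched on both strands for each protein-coding gene. For *Ptges* this start, at 30758819, lies inside the annotated locus, which a transcript not annotated as coding extends. TATAAA, which begins 29 bases before the *Slco2a1* start and 4 bases after that of *Hpgd*, was present in 13.4% of 22372 such windows. Neither the direct repeat DR1 bound by PPAR factors, found in 0.407% of windows, nor the hexamer AGGTCA from which it is built, found in 14.4%, matched in any of the 7 genes. The letters CTTTGAT, found in 3.43% of windows, and CTTTGTT, found in 5.26%, both versions of the core bound by TCF7L2, also had no match in these 7 windows. A missing match says only that these letters are not in this window.

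*Slco2a1* had counts of 309, 267 and 249 in AdWT and 378, 395 and 512 in AdKO. Scaled by edgeR's TMM method, these were 20.2, 16.0 and 16.7 CPM (counts scaled to a common library total) against 26.0, 26.0 and 30.8 CPM. Every AdKO library lay above every AdWT library, and the highest, AdKO replicate 3, stood 1.93-fold above the lowest, AdWT replicate 2. The group means were 17.6 ± 2.28 CPM (SD, n = 3) and 27.6 ± 2.75 CPM (SD, n = 3), a log2 fold change (log2FC, AdKO over AdWT) of 0.65 ± 0.131 (SE), or 1.57-fold. Over all 9872 rows tested, the AdKO libraries lay wholly above the AdWT libraries in 6.16%, and since the set was chosen for this difference, nothing is read from it. Leaving out single libraries gave values from 0.56, without AdKO replicate 3, to 0.76, without AdWT replicate 1. Counting error alone would give a coefficient of variation of 5.33% at this depth, against 13.0% among the AdWT libraries and 9.97% among the AdKO libraries. The symbol has a second row that was at 0 in every library, and the way reads were shared between rows of a symbol is not given in the sources used here, so its level may be undercounted.

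**Figure D1:**
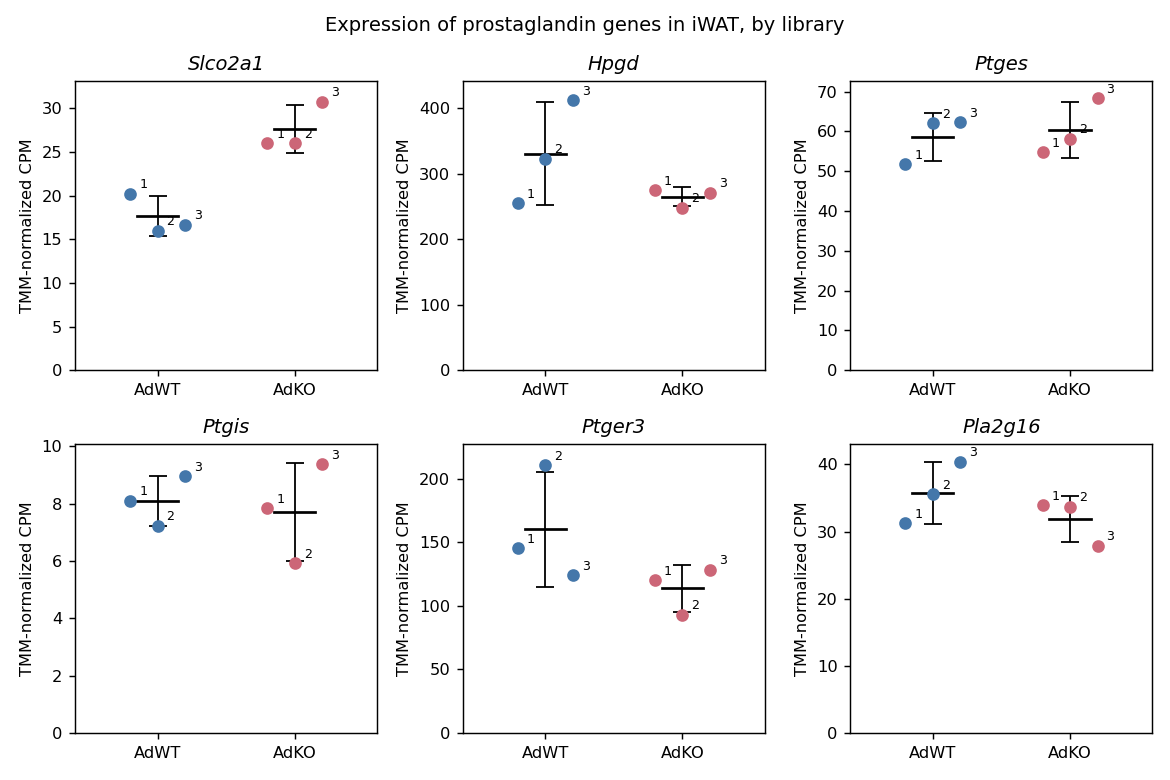
TMM-normalized CPM (vertical axes, from 0) of the 6 genes with enough counts to be tested, in AdWT (blue) and AdKO (red) libraries, numbered by replicate, with the mean and SD of 3 libraries in black. *Slco2a1* runs from 16.0 to 20.2 in AdWT and from 26.0 to 30.8 in AdKO, while the groups overlap in the other 5 panels.

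*Hpgd*, the dehydrogenase that inactivates prostaglandins once they are inside the cell, was the most abundant of the 7 genes. Its only row belongs to a gene at 58773349 to 58799843 on chromosome 8, plus strand. Its normalized level was 255, 323 and 412 CPM in AdWT and 275, 248 and 271 CPM in AdKO. The groups overlapped, because AdWT replicate 1 fell among the AdKO libraries, and AdWT was more spread, with a coefficient of variation of 23.8% against 5.50% in AdKO. The log2FC was -0.32 ± 0.161 (SE, edgeR adjusted *P* = 0.853, by Benjamini-Hochberg over all 9872 rows). Its 95% interval ran from -0.70 to 0.06. Single libraries moved this value: the log2FC was -0.14 without AdWT replicate 3 and -0.47 (edgeR unadjusted *P* = 0.00556) without AdWT replicate 1. In that last setting 1208 of 10204 rows had an unadjusted *P* under 0.05, beside 566 of 9872 with all libraries. The unadjusted *P* of *Hpgd* was also under 0.05 with a filter of at least 1 count in any library (0.0385), beside 845 of 19554 rows. AdWT replicate 3 also held the most liver transcripts. A list of 5 liver genes, chosen after the data were seen, summed to 436 CPM there and 169 CPM in AdKO replicate 3, against 8.83 to 28.5 CPM in the other 4 libraries, and the part of this in the *Hpgd* value was not tested.

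Uptake and oxidation act in sequence, so the raw counts of *Hpgd* and *Slco2a1* were set against each other inside each library, where no scaling enters. There were 12.6, 20.2 and 24.7 *Hpgd* counts for each *Slco2a1* count in AdWT and 10.6, 9.53 and 8.81 in AdKO. All AdKO ratios were below all AdWT ratios, with a narrow gap between AdWT replicate 1 and AdKO replicate 1. *Slco2a1*, for which the set was chosen, is 1 side of this ratio, so it is given as a description.

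*Slco3a1*, a related organic anion transporter that can also carry prostaglandins, was the pathway gene outside the 10 with the smallest *P*. Its counts were 330, 383 and 343 in AdWT and 270, 268 and 273 in AdKO. In CPM these were 21.6, 22.9 and 23.0 against 18.6, 17.7 and 16.4, so every AdKO library lay below every AdWT library, a separation in that direction seen in 5.72% of all rows. The log2FC was -0.36 ± 0.100 (SE, edgeR unadjusted *P* = 0.00833, adjusted *P* = 0.847), which did not pass the threshold of 0.05 after adjustment. Its value stayed between -0.40 and -0.31 with each library left out in turn. In AdWT there were 0.936, 0.697 and 0.726 *Slco2a1* counts for each *Slco3a1* count, and in AdKO 1.40, 1.47 and 1.88. Both genes were picked for their values, *Slco2a1* as higher and *Slco3a1* by its *P*, so this ratio is a description and adds no support.

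**Figure D2:**
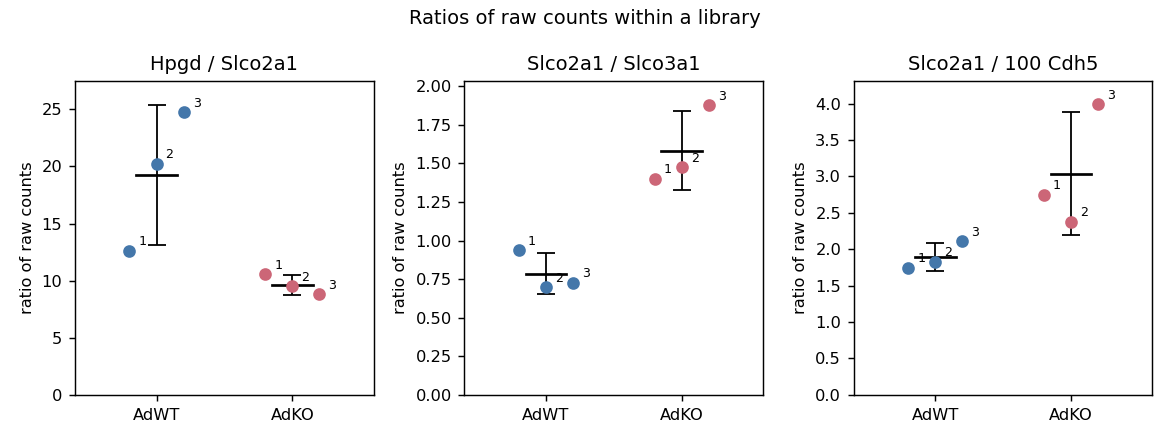
Ratios of raw counts within each library (vertical axes, from 0), by group, with replicate numbers, and the mean and SD of 3 libraries in black. *Hpgd* per *Slco2a1* is lower in AdKO (8.81 to 10.6) than in AdWT (12.6 to 24.7), and *Slco2a1* per *Slco3a1* and per 100 counts of the endothelial cadherin *Cdh5* are higher in AdKO.

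The groups overlapped for both *Ptges* and *Ptgis*. *Ptges*, the inducible microsomal synthase of prostaglandin E2 (chromosome 2, 30744991 to 30785383, minus strand), measured 51.8, 62.1 and 62.3 CPM in AdWT and 54.9, 58.2 and 68.4 CPM in AdKO. The ranges overlapped. Its log2FC was 0.04 ± 0.114 (SE), with a 95% interval from -0.22 to 0.31, and its sign turned without AdWT replicate 1 (-0.039) or AdKO replicate 3 (-0.053). *Ptgis*, which makes prostacyclin (chromosome 2, 167017305 to 167066104, minus strand), stood at 8.11, 7.23 and 8.97 CPM in AdWT and 7.84, 5.93 and 9.37 CPM in AdKO. Both the lowest and the highest *Ptgis* value were AdKO libraries. Its log2FC was -0.07 ± 0.200 (SE), with a 95% interval from -0.54 to 0.40, which leaves room for a difference of either sign. The annotation places a lincRNA, *1110018N20Rik*, on the opposite strand of *Ptgis*. It had between 2 and 11 counts per library, against 90 to 156 for *Ptgis*, and whether counting used strand is not given in the sources used here.

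*Ptgds*, the lipocalin-type prostaglandin D synthase known from brain and fat (chromosome 2, 25322229 to 25325566, minus strand), was close to the detection limit. Its counts were 1, 9 and 4 in AdWT and 1, 0 and 4 in AdKO, too few for the test. The count of 0 in AdKO replicate 2 allows up to 3 counts, or 0.198 CPM, a limit that covers counting error only. The other synthase of prostaglandin D2, the hematopoietic enzyme *Hpgds*, was far better covered. It had 550, 481 and 179 counts in AdWT and 496, 618 and 838 in AdKO, or 25.6 ± 12.3 CPM (SD, n = 3) against 41.7 ± 8.18 CPM (SD, n = 3). The groups overlapped at AdWT replicate 1, the log2FC was 0.71 ± 0.360 (SE, edgeR adjusted *P* = 0.853), and it was 0.36 without AdWT replicate 3, 1.03 without AdWT replicate 1 and 0.21 without both replicate 3 libraries. *Hpgds* was named after its values were seen.

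*Ptger3* (chromosome 3, 157229856 to 157307722, plus strand) encodes EP3, a receptor that lowers cyclic AMP. Its level was 146, 211 and 124 CPM in AdWT and 120, 93.1 and 129 CPM in AdKO. AdWT replicate 2 stood above all others, and AdKO replicate 3 lay above AdWT replicate 3. The log2FC was -0.49 ± 0.206 (SE, edgeR unadjusted *P* = 0.0471, adjusted *P* = 0.851). The unadjusted *P* was above 0.05 with a replicate block (0.0984), a robust fit (0.0574), library size scaling (0.0590) and without AdWT replicate 1 or 2 or AdKO replicate 1 or 2. It was between 0.0103, without AdWT replicate 3, and 0.0486, with rows of a symbol summed, in the other alternatives. The log2FC was -0.25 without AdWT replicate 2, the library that also held the most skeletal muscle transcripts, with 190 CPM summed over 9 muscle genes against 22.4 and 43.0 CPM in the other AdWT libraries and 10.7 to 11.3 CPM in AdKO. Without both replicate 3 libraries it was -0.74. The part of muscle in this difference was not tested. *Ptger3* has 3 rows and 3 annotated coding transcripts, which the table does not pair. Its second row had 93, 127 and 137 counts in AdWT and 128, 96 and 94 in AdKO, with a log2FC of -0.14 ± 0.231 (SE), and the last was at 0 throughout. The leading row had between 13.5 and 27.8 times the counts of the second, without a separation of the groups.

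Both other prostaglandin E2 receptors with a row had fewer counts. *Ptger1*, which encodes the calcium-coupled EP1, measured 22.0 ± 4.61 CPM in AdWT and 25.8 ± 3.38 CPM in AdKO (SD, n = 3). *Ptger2*, whose product EP2 raises cyclic AMP, measured 14.5 ± 4.51 and 16.9 ± 1.46 CPM (SD, n = 3). Their log2FC values, 0.23 ± 0.170 (SE) and 0.23 ± 0.219 (SE), had the opposite sign to that of *Ptger3*. Neither had an edgeR unadjusted *P* under 0.05 with all libraries. Both had one without AdWT replicate 1, where 1208 of 10204 rows did. *Ptger3* had 7.52, 15.6 and 11.8 counts for each *Ptger2* count in AdWT and 7.62, 5.70 and 6.93 in AdKO, and the groups met at AdWT replicate 1 and AdKO replicate 1.

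*Pla2g16*, the adipose phospholipase A2 (chromosome 19, 7631949 to 7663035, plus strand), measured 31.3, 35.6 and 40.4 CPM in AdWT and 33.9, 33.7 and 27.9 CPM in AdKO. The groups overlapped, with the lowest value in AdKO replicate 3 and the highest in AdWT replicate 3. The log2FC was -0.17 ± 0.127 (SE, edgeR adjusted *P* = 0.855), and without both replicate 3 libraries it was 0.016. A second row of *Pla2g16*, with 100 to 146 counts per library, had a log2FC of 0.10 ± 0.205 (SE), so the 2 rows that could be tested pointed in opposite directions, and the last row was at 0.

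Compared per kilobase of annotated exon, joined over a gene's coding transcripts, the genes fell into an order that was largely kept across the 6 libraries. *Hpgd* led with 144 to 240 CPM per kilobase, followed by *Ptger3* with 20.4 to 46.3 and *Ptges* with 13.9 to 18.4, and these 3 ranges did not touch. *Slco2a1* (3.96 to 7.62 CPM per kilobase), *Pla2g16* (4.36 to 6.32) and *Ptgis* (2.59 to 4.10) came next. *Slco2a1* lay wholly below *Ptges* and overlapped with *Pla2g16* and *Ptgis*, whereas *Pla2g16* and *Ptgis* did not overlap. *Ptgds* had at most 0.574 CPM per kilobase in every library. *Slco2a1*, *Ptger3* and *Pla2g16* have several rows, so their place in this order may be too low.

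**Figure D3:**
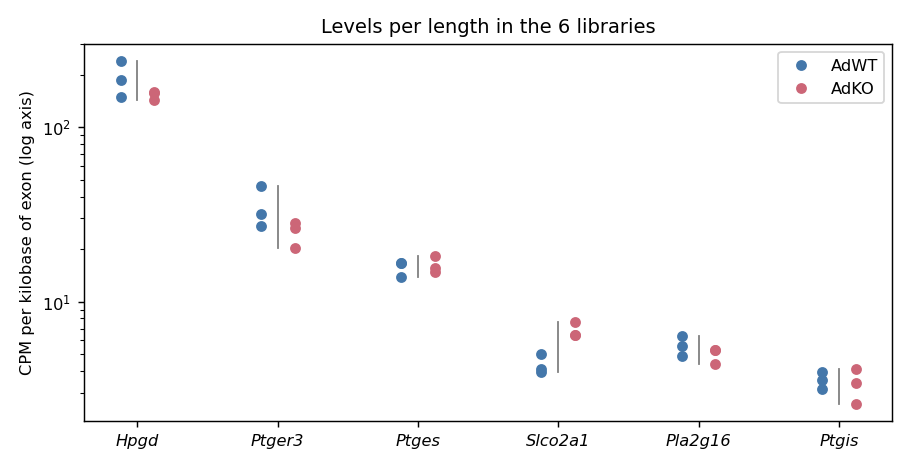
Levels in CPM per kilobase of exon (vertical axis, logarithmic) of the 6 best covered genes in each of the 6 libraries, AdWT in blue and AdKO in red, with a grey line from the lowest to the highest. *Hpgd* (144 to 240) stands apart from *Ptger3* (20.4 to 46.3) and *Ptges* (13.9 to 18.4), and *Slco2a1* and *Pla2g16* share a range.

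No row of the table passed an adjusted *P* of 0.05 in edgeR's quasi-likelihood test (0 of 9872 rows, 0%), with 566 rows (5.73%) at an unadjusted *P* under 0.05. DESeq2 called 27 of 6891 rows, and the 5 tested genes other than *Slco2a1* were not among them. For *Slco2a1*, which chose the set, no test is read. Of the 566, 272 (2.76%) were higher and 294 (2.98%) lower in AdKO. With scaling by library size only, 313 rows were higher and 162 lower at that threshold. Apart from *Slco2a1*, 1 of the other 5 tested genes, *Ptger3*, had an unadjusted *P* under 0.05, and its groups overlapped. Groups separated fully in 0 of these 5 genes, beside 1173 (11.9%) of all rows, and in *Slco2a1*, for which the set was chosen. The median log2FC of all 6 was -0.12, *Slco2a1* included, beside 0.01 over all rows.

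A wider list of 56 genes of the same lipid pathways, with the 10 left out, gave 45 genes with a row and 27 that could be tested. Of the 27, 16 had a positive and 11 a negative log2FC (median 0.11), and 2 (7.41%) had an unadjusted *P* under 0.05, both lower in AdKO, beside 5.73% of all rows, while 0 passed after adjustment. AdKO stood wholly above AdWT in 3 of the 27 and wholly below in 4, or 7 (25.9%) together, beside 6.16%, 5.72% and 11.9% of all rows. Among 8 genes that release arachidonic acid or related lipids, 4 were higher and 4 lower. The most abundant were *Daglb*, a diacylglycerol lipase, with a log2FC of 0.27 ± 0.173 (SE), *Pla2g7*, which hydrolyses platelet-activating factor, with 0.14 ± 0.259 (SE), and the lysosomal phospholipase *Pla2g15* with 0.07 ± 0.225 (SE).

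Of 8 further synthases and reductases, 6 were higher and 2 lower in AdKO. The gene with an unadjusted *P* under 0.05 was *Fam213b*, which encodes a prostamide and prostaglandin F synthase. It had 3713, 4579 and 4243 counts in AdWT and 3203, 3673 and 3485 in AdKO, or 267 ± 21.3 CPM (SD, n = 3) against 224 ± 16.6 CPM (SD, n = 3). All AdWT libraries lay above all AdKO libraries, narrowly, and the log2FC was -0.25 ± 0.0879 (SE, edgeR adjusted *P* = 0.851). Its unadjusted *P* was 0.0220, and it was above 0.05 when AdWT replicate 2 or 3 or AdKO replicate 1 or 3 was left out. Without both replicate 3 libraries the *P* of *Slco3a1* was also above 0.05, at 0.0626. The carbonyl reductase *Cbr1* had a log2FC of -0.002 ± 0.116 (SE), the aldo-keto reductase *Akr1b8* 0.12 ± 0.0693 (SE), and the membrane-associated prostaglandin E synthase *Ptges2* 0.05 ± 0.0802 (SE).

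For transport and breakdown, 2 of the 4 genes tested were higher and 2 lower. Besides *Slco3a1*, these were *Ptgr1*, a reductase that acts after *Hpgd*, with a log2FC of -0.06 ± 0.147 (SE), and the cytochromes *Cyp4f13* and *Cyp4f18* with 0.11 ± 0.159 (SE) and 0.11 ± 0.249 (SE). The export pump *Abcc4* was listed at 0 in every library. Among 5 genes of the receptor list, 3 were higher and 2 lower. *Ptgfrn*, a partner protein that dampens the prostaglandin F2α receptor, measured 220 ± 25.3 and 245 ± 18.2 CPM (SD, n = 3), a log2FC of 0.16 ± 0.102 (SE). The receptor itself, *Ptgfr*, had only 14 to 32 counts per library and a log2FC of -0.54 ± 0.263 (SE). The groups separated in both, in opposite directions, for *Ptgfrn* by no more than 234.8 against 235.0 CPM, and neither had an unadjusted *P* under 0.05. *Ptgfr* was named after its values were seen. In the leukotriene branch, *Alox5*, the lipoxygenase that starts it, had a log2FC of 0.23 ± 0.212 (SE) and the hydrolase *Lta4h* -0.08 ± 0.0639 (SE).

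**Figure D4:**
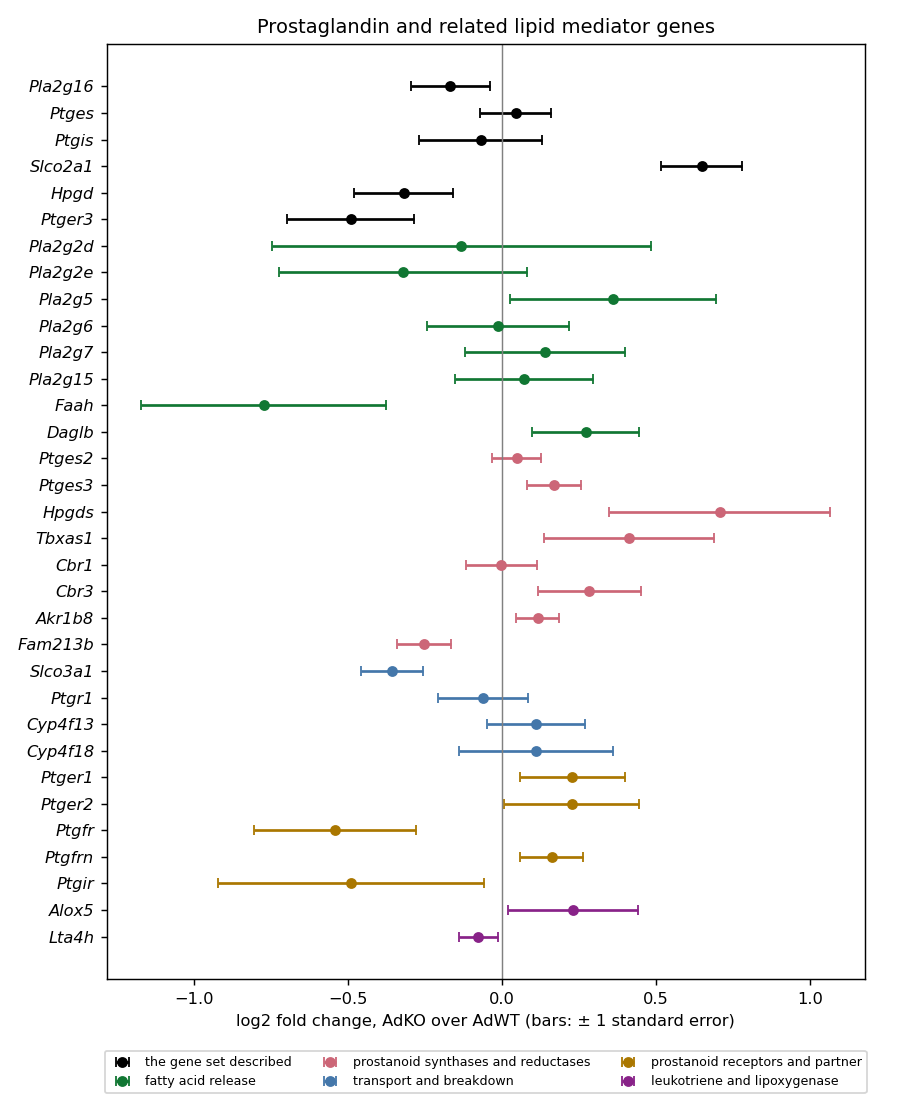
Log2FC of AdKO over AdWT (horizontal axis) for the 6 tested genes of the set (black) and 27 further genes of the same lipid pathways (colours by role), with bars of 1 standard error. *Slco2a1* lies at 0.65 and *Ptger3* at -0.49, and *Faah* (-0.77 ± 0.398), an amide hydrolase, and *Hpgds* (0.71 ± 0.360) lie farthest from 0 on either side, with wide bars. *Faah* was named after its values were seen.

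In whole tissue, fewer cells of a type and less RNA per cell cannot be told apart, so markers of the cells in the depot were read beside *Slco2a1*, which endothelium, macrophages and other cells can express. Of the 8 skeletal muscle genes tested, 7 had an unadjusted *P* under 0.05, all lower in AdKO (2.98% of all rows), and 6 of 9 separated fully (5.72% of all rows in that direction), with AdWT replicate 2 the highest sum, as given beside *Ptger3*. All 3 mast cell genes tested were higher in AdKO at that threshold (2.76% of all rows), and 0 of either list passed adjustment. *Cpa3*, the mast cell carboxypeptidase, had 280, 301 and 170 counts in AdWT and 313, 609 and 429 in AdKO, a log2FC of 0.87 ± 0.272 (SE), or 0.57 without AdKO replicate 2. *Tpsb2*, a tryptase, had a log2FC of 0.69 ± 0.183 (SE) and *Mcpt4*, a chymase, 0.89 ± 0.238 (SE). In all 3 genes every AdKO library lay above every AdWT library (6.16% of all rows), and the unadjusted *P* values were 0.0137, 0.00628 and 0.00644, with adjusted *P* of 0.851, 0.837 and 0.837 in edgeR's quasi-likelihood test. The adjusted *P* of *Mcpt4* was 0.0483 in DESeq2 and between 0.391 and 0.998 in the other alternatives. Summed over 5 mast cell genes with a row, the level was 61.0 to 100.5 CPM in AdWT and 128 to 185 CPM in AdKO. The receptor genes that define these cells, *Kit* and *Fcer1a*, had at most 2 and 3 counts in any library. Low rows are hard to read in this table, since *Kdr*, an endothelial receptor, had at most 2 counts and *Pdgfra*, a progenitor receptor, at most 13. There were 0.887 to 1.46 *Slco2a1* counts for each *Cpa3* count in AdWT and 0.649 to 1.21 in AdKO, overlapping. *Slco2a1* chose the set and *Cpa3* was also higher in AdKO, so this ratio is a description and adds no support. The part of mast cells in the *Slco2a1* or *Hpgds* values was not tested.

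**Figure D5:**
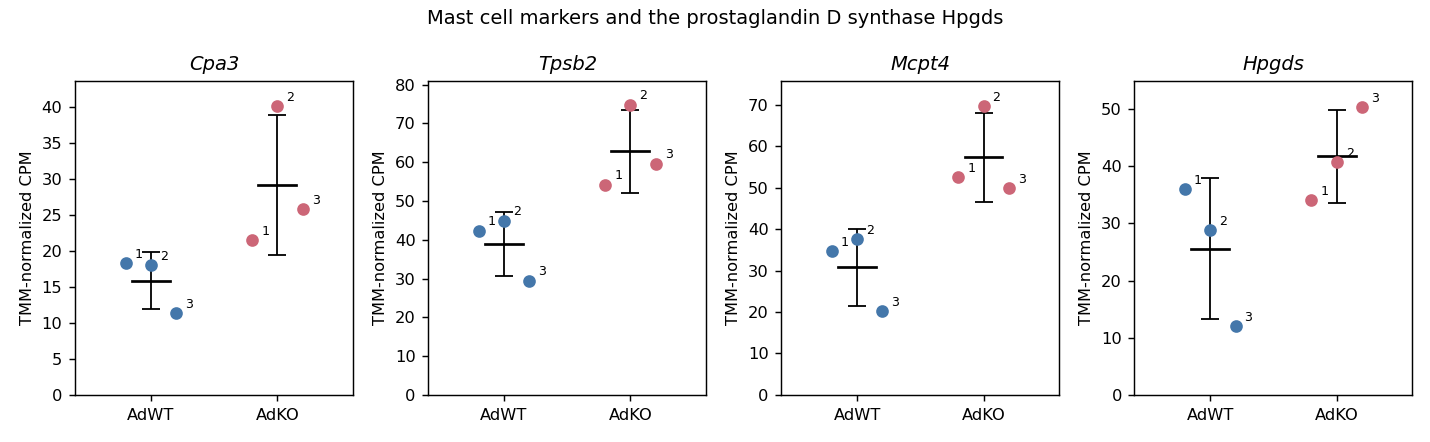
TMM-normalized CPM (vertical axes, from 0) of 3 mast cell protease genes and of *Hpgds* in AdWT (blue) and AdKO (red) libraries, numbered by replicate, with the mean and SD of 3 libraries in black. The AdKO libraries lie above the AdWT libraries for *Cpa3*, *Tpsb2* and *Mcpt4*, and the groups overlap for *Hpgds*.

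Most other marker lists overlapped between the groups, with adipocyte and muscle genes as exceptions. Endothelial genes summed to 1267 to 1799 CPM in AdWT and 1265 to 1750 CPM in AdKO over 10 genes, with 0 of them separated. Set against the endothelial cadherin *Cdh5*, *Slco2a1* had 1.75, 1.83 and 2.11 counts per 100 *Cdh5* counts in AdWT and 2.75, 2.38 and 3.99 in AdKO. Since *Slco2a1* chose the set and endothelial genes overlapped, this ratio is a description and adds no support. Macrophage genes summed to 504 to 1241 CPM in AdWT and 971 to 1327 CPM in AdKO over 7 genes, lowest in AdWT replicate 3, as *Hpgds* was. Of 6 macrophage genes tested, 5 had a positive and 1 a negative log2FC (median 0.40). The part of macrophages in the *Slco2a1* or *Hpgds* values was not tested. Progenitor and fibroblast genes (3455 to 7510 CPM against 5677 to 10331 CPM) and smooth muscle and pericyte genes (320 to 520 CPM against 432 to 482 CPM) overlapped. So did lymphoid genes (13.9 to 61.8 CPM against 17.2 to 33.4 CPM) and mesothelial genes (4.30 to 5.95 CPM against 4.74 to 7.81 CPM). The log2FC was positive in 4 of 5 progenitor and fibroblast genes tested (median 0.21) and 4 of 4 smooth muscle and pericyte genes (0.24). It was negative in 5 of 5 lymphoid genes (-0.37). Epithelial genes summed to 20.3 CPM in AdWT replicate 3 and 48.0 CPM in AdKO replicate 3, and to at most 1.44 CPM elsewhere. Adipocyte genes, 6 with a row, summed to 46216 to 54686 CPM in AdWT and 41403 to 42072 CPM in AdKO. The sum was lower in every AdKO library and was carried by *Fabp4* and *Lep*, the 2 of 6 genes that separated (5.72% of all rows in that direction). The unadjusted edgeR *P* of *Lep* was 0.0221, and 5 of the 6 had a negative log2FC (median -0.19). Its part in the lower mean levels of *Hpgd*, *Ptger3* and *Pla2g16* was not tested.

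The rows whose log2 CPM followed *Slco2a1* most closely over the 6 libraries were *Crip1* (Pearson's r = 0.997), *Kcnt2* (0.995), a row of *Pabpn1* (0.994), *Snx24* (0.990) and *Manba* (0.985). *Crip1*, a small LIM-domain protein, had 2475, 2383 and 2222 counts in AdWT and 2699, 2842 and 3495 in AdKO, a log2FC of 0.36 ± 0.0810 (SE). *Kcnt2* and the *Pabpn1* row rest on 10 to 32 counts per library. With 6 libraries in 2 groups and 9872 rows to choose from, values this high are a description only. Within the set, the r of *Slco2a1* was -0.75 with *Pla2g16*, -0.70 with *Hpgd*, -0.62 with *Ptger3*, -0.01 with *Ptgis* and 0.11 with *Ptges*, over the same 6 libraries and scaling factors. Since *Slco2a1* was picked for its difference between the groups, these follow in part from each gene's own group means and add no support.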

How the data were processed

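RNA from iWAT was sequenced on KAPA stranded libraries. The authors aligned the reads with HISAT2 to mm9 and deposited raw read counts per row without normalization. The counting tool and its strand setting are not given in the sources used here. The table has 37024 rows, of which 17470 were at 0 in all libraries, and 8694 of its 19509 symbols have several rows.

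Counts were filtered with filterByExpr, scaled by TMM and compared with glmQLFit and glmQLFTest in edgeR 4.0.16 (R 4.3.3), with Benjamini-Hochberg adjustment over 9872 rows calling adjusted values under 0.05. Standard errors (SE) were derived from the log2 fold change (log2FC) and the square root of F. Log2 CPM for correlations used a prior count of 0.5. Alternatives were DESeq2 1.42.0, other scalings and filters, a robust fit, summed rows, the replicate number as a block, and each library left out. The genes and lists were chosen with earlier results of these data known. Genes were named by a rule: the 10 genes, *Lexis*, pathway genes with an unadjusted *P* under 0.05, up to 3 of the most abundant others per list, the cell type genes that a result turns on, and the 5 rows most like *Slco2a1*. *Abcc4*, *Kdr*, *Pdgfra* and *1110018N20Rik* were named after their values were seen. Loci and windows come from GENCODE M1 on NCBIM37, the assembly of mm9. Replicates of a group differed by far more than sampling noise.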

Additional observations from a re-analysis of the deposited data

How the results depend on the processing

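The log2FC of *Slco2a1* was 0.65, from 0.56 to 0.76 with single libraries left out, and 0.52 without both replicate 3 libraries, an alternative chosen after seeing the data because these held most liver and epithelial transcripts. Rows with an adjusted *P* under 0.05 numbered 0 in the test reported, 27 with DESeq2, 1 with a filter of at least 1 count in any library, 1 without both replicate 3 libraries and 0 to 1 with single libraries left out (1 without AdKO replicate 3). Leaving out AdWT replicate 2 left 329 rows at an unadjusted *P* under 0.05, and leaving out AdWT replicate 1 gave 1208. Of the further pathway genes, 8 had such a *P* without AdWT replicate 1, beside 1208 of 10204 rows. The number was 1 without AdWT replicate 3, beside 501 of 10227 rows. It was 0 without both replicate 3 libraries, beside 412 of 9919 rows.

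Signs turned for genes near 0. *Ptges* was -0.039 without AdWT replicate 1, -0.053 without AdKO replicate 3 and -0.0100 without both replicate 3 libraries, and at most 0.11 with single libraries left out. *Ptgis* ran from -0.23, without AdKO replicate 3, through 0.00048, without AdWT replicate 3, to 0.081, without AdKO replicate 2. *Pla2g16* was 0.016 without both replicate 3 libraries. The cause was not tested. *Hpgd* and *Ptger3* stayed negative in all alternatives run.

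Deviations from the group mean correlated at -0.07, -0.14 and 0.32 between the same-numbered libraries of replicates 1, 2 and 3. Differently numbered libraries were not compared, so these values do not decide whether the libraries were paired. With the replicate number as a block, the log2FC of *Slco2a1* was 0.65. In that fit 418 of 9872 rows had an unadjusted *P* under 0.05, among them 3 of the 27 further pathway genes. *Ptgds* could not be tested at this depth.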
